A study of Homo sapiens with 6 samples.

Results

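CXC chemokine genes clustered on human chromosome 4 were examined in cells with reduced G9a, a histone methyltransferase encoded by EHMT2 that places repressive methyl marks on lysine 9 of histone H3. The 10 genes were CXCL1, CXCL2, CXCL3, CXCL5, CXCL6, CXCL8, CXCL9, CXCL10, CXCL11 and CXCL13. They leave out PPBP, PF4 and PF4V1 of the same family and region, and were chosen with earlier results of these data known. Each had 1 probe set that the platform annotation assigns to that gene alone, so all 10 were measured, out of 18417 genes measured singly. Both groups were MDA-MB231, a widely used breast cancer line of metastatic origin: 3 arrays came from 1 clone with a stable G9a knockdown, which the labels call less metastatic, and 3 from the parental cells, labelled untreated and called control here. All cells were grown in serum-containing DMEM/F12 medium and harvested in log growth. Because the knockdown is a single clone, its differences from the parental population cannot be told apart from differences between clones. Since the control cells were untreated, effects of making a stable knockdown line cannot be told apart from those of reduced G9a either. Nothing in the labels says that replicates were separate cultures, so p-values reflect only how far these 6 arrays spread, and that spread may be technical.

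Chemokines are small secreted proteins that guide leukocytes through G protein-coupled receptors. CXCL1, CXCL2, CXCL3, CXCL5, CXCL6 and CXCL8 carry a glutamate-leucine-arginine motif before the first cysteines, bind CXCR2, and attract neutrophils; their transcription is classically driven by NF-kappaB downstream of interleukin-1 and TNF. CXCL9, CXCL10 and CXCL11 lack that motif, bind CXCR3 on activated T cells and NK cells, and are classically induced by interferons. CXCL13 attracts B cells through CXCR5. Tumour cells of the basal type, such as MDA-MB231, are known to secrete CXCL1 and CXCL8.

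The sequences just before the transcription start are shown because they show which regulatory letters the neutrophil and the interferon-induced genes share there, and because CXCL3 can be set beside CXCL1 and CXCL2, which it resembles. They are RefSeq sequences of GRCh38.p14, in the direction of transcription and ending at the base before the annotated start. Capitals mark matches, on either strand, to the NF-kappaB consensus, to the ISRE core (GAAA, any 2 bases, then GAAA), an element of interferon-responsive genes, or to the 9-base sequence GGAATTTCC. The stretches lie at chr4:73869243-73869392 (plus strand) for CXCL1, chr4:74099196-74099345 (minus strand) for CXCL2, chr4:74038690-74038839 (minus strand) for CXCL3, chr4:73740419-73740568 (plus strand) for CXCL8, chr4:76023498-76023747 (minus strand) for CXCL10 and chr4:76036071-76036320 (minus strand) for CXCL11.
CXCL1: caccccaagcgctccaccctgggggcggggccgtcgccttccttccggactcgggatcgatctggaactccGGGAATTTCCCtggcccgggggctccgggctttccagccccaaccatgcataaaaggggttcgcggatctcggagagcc
CXCL2: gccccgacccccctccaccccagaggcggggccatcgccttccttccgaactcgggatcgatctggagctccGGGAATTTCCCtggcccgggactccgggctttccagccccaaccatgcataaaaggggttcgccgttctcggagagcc
CXCL3: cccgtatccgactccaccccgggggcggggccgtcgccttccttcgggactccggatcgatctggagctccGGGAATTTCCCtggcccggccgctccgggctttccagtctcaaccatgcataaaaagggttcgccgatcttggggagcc
CXCL8: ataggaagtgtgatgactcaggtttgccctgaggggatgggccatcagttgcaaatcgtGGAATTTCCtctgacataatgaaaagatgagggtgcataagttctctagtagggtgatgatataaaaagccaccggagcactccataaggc
CXCL10: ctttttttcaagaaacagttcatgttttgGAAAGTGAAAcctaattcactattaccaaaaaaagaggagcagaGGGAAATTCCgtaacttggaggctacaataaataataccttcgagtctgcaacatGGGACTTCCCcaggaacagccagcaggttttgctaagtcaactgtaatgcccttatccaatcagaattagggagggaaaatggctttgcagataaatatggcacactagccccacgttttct
CXCL11: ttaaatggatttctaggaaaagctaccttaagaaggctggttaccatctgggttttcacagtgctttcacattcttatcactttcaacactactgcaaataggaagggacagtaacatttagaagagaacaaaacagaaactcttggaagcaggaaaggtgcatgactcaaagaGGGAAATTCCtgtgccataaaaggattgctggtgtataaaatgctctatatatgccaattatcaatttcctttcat

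The sequence GGAATTTCC, picked after the stretches had been read, was present in all 6 neutrophil chemokine genes among the members, between 250 bases before and 50 bases after the start. It was also present on the other strand in CXCL10 and CXCL11, so that 8 of the 10 genes held it, against 0.461% of 35116 RefSeq promoters of the same length. In the neutrophil genes it began at positions -91 to -77, counted from the start. The NF-kappaB consensus, which overlaps this sequence in 7 of the 8 genes, was found in CXCL1, CXCL2, CXCL3, CXCL5, CXCL6, CXCL10 and CXCL11, against 11.3% of all promoters. The ISRE core was found in CXCL9 and CXCL10, against 3.57% of all promoters. The AP-1 motif TGANTCA, found in 7.71% of all promoters, was present in CXCL8 and CXCL11, and the GAS motif TTCNNNGAA, found in 7.66%, in CXCL5, CXCL6 and CXCL11. The TATA motif TATAAA was found in CXCL8, CXCL9, CXCL11 and CXCL13, against 11.5% of all promoters. Over the 250 bases before the start, CXCL1 was 81.4% identical to CXCL3 and 70.1% identical to CXCL2, CXCL2 was 73.4% identical to CXCL3, and CXCL5 was 85.3% identical to CXCL6. These matches describe letters and not bound sites.

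**Figure D1:**
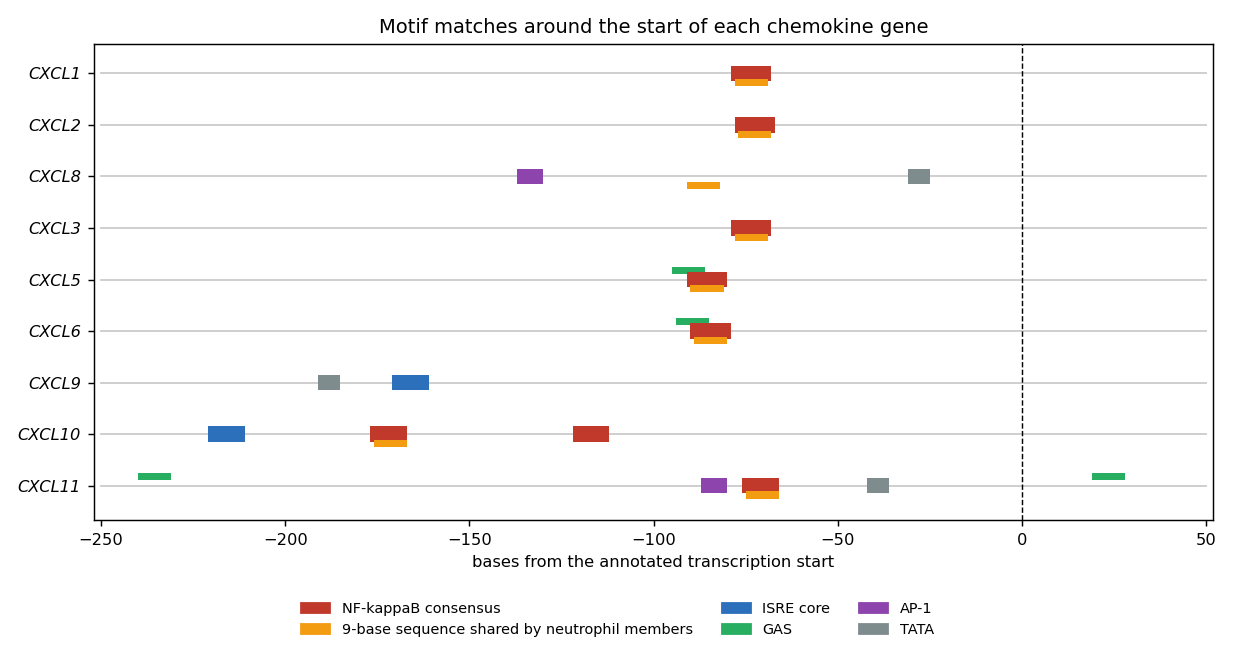
Motif matches by position in bases from the annotated transcription start (dashed line), 1 row per gene; CXCL13, which has more than 1 annotated start, is left out. Red NF-kappaB and orange GGAATTTCC matches lie together in CXCL1, CXCL2, CXCL3, CXCL5, CXCL6, CXCL10 and CXCL11, and blue ISRE core matches appear in CXCL9 and CXCL10.

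EHMT2 itself read 9.66, 9.59 and 9.51 in the knockdown and 10.21, 10.27 and 9.93 in control on the log2 intensity scale. The knockdown thus held 0.681 of the control level (limma, adjusted p = 0.0259), in the direction that the group labels state. Any pair of arrays correlated at 0.992 to 0.997 (Pearson r across probe sets). Control replicate 3 read apart from the other control arrays for several of the chemokines, and the values of those members are given with and without it. Of the 7 genes listed as expressed in MDA-MB231, none passed; VIM read between 13.47 and 13.54 on the 6 arrays. None of the 10 leukocyte markers measured singly passed in limma either; at an unadjusted p under 0.05, 3 of the MDA-MB231 genes were lower, and 2 leukocyte markers were higher and 1 lower. CSF1R (0.22 higher) and PTPRC (0.21 higher) had the largest leukocyte marker differences. Of 8 luminal and epithelial markers, CDH1 (E-cadherin) rose by 0.45 (limma, adjusted p = 0.0177). Of 8 fibroblast and endothelial markers, CDH5 (VE-cadherin) rose by 0.71 (limma, adjusted p = 0.0210). The other 7 of each list did not pass. At an unadjusted p under 0.05 in limma, 1 luminal or epithelial marker was higher and 2 were lower, KRT19 (-0.38) and FOXA1 (-0.18). For the fibroblast and endothelial list, 2 were higher and 0 lower. With 1 array left out, CDH1, which is in the lowest 33.3% of genes by mean level, passed in 1 of 6 fits (limma, adjusted p up to 0.0983) and CDH5 in 2 (up to 0.0869). The summed level was 67.9 to 68.6 in the knockdown and 67.9 to 68.0 in control for the luminal and epithelial list, and 58.5 to 59.1 in the knockdown and 56.2 to 58.3 in control for the fibroblast and endothelial list. Both groups are labelled as MDA-MB231, and whether these marker genes bear on the chemokine differences was not tested. The leukocyte markers summed to 69.6 to 71.3 in the knockdown and 69.0 to 70.0 in control.

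Among the neutrophil chemokines, CXCL1, CXCL2 and CXCL8 were at 0.394, 0.376 and 0.356 of the control level in the knockdown. CXCL1 fell past the threshold, CXCL8 and CXCL2 lay just outside it, and CXCL3, CXCL5 and CXCL6 differed by 0.19 or less on the log2 scale. Among the interferon-induced chemokines, CXCL10 rose 2.70-fold and CXCL11 rose 1.47-fold, while CXCL9 did not pass. In bulk RNA, fewer cells that express a gene and less RNA per cell cannot be told apart. By limma with Benjamini-Hochberg adjustment over all 18417 genes, 1 of the 10 members fell, against 1.78% of all genes, and 2 rose, against 1.28%. The remaining 7 did not pass.

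CXCL1, known as GRO-alpha and first described as a melanoma growth factor, read 9.97, 9.68 and 9.77 in the knockdown, against 10.78, 10.75 and 11.93 in control. The groups did not overlap, and control replicate 3 stood 1.16 above the mean of the other control arrays. The difference was -1.34 ± 0.28 (SE; 95% interval -1.99 to -0.70; limma, adjusted p = 0.0458; n = 3 arrays each). Without control replicate 3 it was -0.96 and passed (adjusted p = 0.00943), whereas without any other single array the adjusted p lay between 0.0535 and 0.160.

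CXCL8, which encodes interleukin-8, a ligand of both CXCR1 and CXCR2, read 9.51, 9.27 and 9.46 in the knockdown, against 10.43, 10.44 and 11.83 in control. All 3 knockdown arrays were below all 3 control arrays, with control replicate 3 again the highest, by 1.40 over the mean of the others. Its difference was the 5th lowest of the 18417 genes, -1.49 ± 0.33 (SE; 95% interval -2.26 to -0.73). It missed the threshold (limma, adjusted p = 0.0558), with an SD of 0.13 in the knockdown and 0.81 in control (n = 3 arrays each). Without control replicate 3 it was -1.02 and passed (adjusted p = 0.006).

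CXCL2, the close paralog of CXCL1 also called GRO-beta, read 7.70, 7.63 and 7.69 in the knockdown, against 8.64, 8.62 and 10.01 in control. The knockdown arrays lay within 0.07 of each other, and control replicate 3 stood 1.38 above the mean of the other control arrays. The difference was -1.41 ± 0.33 (SE; 95% interval -2.16 to -0.66; limma, adjusted p = 0.0613), and -0.95 without control replicate 3 (adjusted p = 0.00283). In that fit CXCL1, CXCL2 and CXCL8 all fell, against 1.70% of all genes. Measured against control replicates 1 and 2 alone, the knockdown held 0.515 of the CXCL1 level, 0.517 of the CXCL2 level and 0.492 of the CXCL8 level. Since CXCL1, CXCL2 and CXCL3 are closely similar in sequence, signal may pass between their probe sets and the 3 readings are uncertain as separate values.

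CXCL3, or GRO-gamma, read 6.59, 6.70 and 6.64 in the knockdown, against 6.61, 6.80 and 7.08 in control. The groups overlapped, and the highest array was again control replicate 3. The difference was -0.19 ± 0.11 (SE; 95% interval -0.45 to 0.07; limma, adjusted p = 0.398). CXCL3 is in the lowest 33.3% of genes by mean level, where values cannot be separated from background here, so a larger fall may not be measurable. Without control replicate 3 it was -0.06. The promoter stretches of CXCL1 and CXCL3 shown above carry the same capitals.

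CXCL5, also known as ENA-78, read 7.52, 7.25 and 7.37 in the knockdown, against 7.28, 7.35 and 7.30 in control. CXCL6, also known as GCP-2 and the neighbour of CXCL8, read 6.90, 6.36 and 6.69 in the knockdown, against 6.54, 6.55 and 6.58 in control. In both genes the knockdown arrays lay on either side of the control arrays, which spread by 0.07 for CXCL5 and 0.04 for CXCL6. The differences were 0.07 (95% interval -0.11 to 0.25) and 0.09 (-0.19 to 0.37), with adjusted p of 0.685 and 0.729 in limma. Control replicate 3 did not stand apart for either gene. CXCL5, CXCL6, CXCL9, CXCL11 and CXCL13 were in the lowest 33.3% of genes by mean level too.

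CXCL10, also known as IP-10 and a ligand of CXCR3, read 9.34, 9.37 and 9.19 in the knockdown, against 8.23, 7.97 and 7.40 in control. No arrays overlapped, and control replicate 3 was the lowest, 0.70 below the mean of the other control arrays, the opposite side from CXCL1, CXCL2 and CXCL8. The difference of 1.43 ± 0.18 (SE; 95% interval 1.01 to 1.86; limma, adjusted p = 0.0112) was the 2nd highest of the 18417 genes. It was 1.20 without control replicate 3 (adjusted p = 0.0061), and against control replicates 1 and 2 alone the level was 2.30-fold higher. Without knockdown replicates 1 and 3 in turn the adjusted p was 0.0588 and 0.0576.

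CXCL11, also known as I-TAC, which binds CXCR3 and ACKR3, read 6.11, 6.19 and 6.30 in the knockdown, against 5.63, 5.79 and 5.50 in control. The groups did not overlap and the arrays of each group spread by 0.19 and 0.30. The difference was 0.56 ± 0.09 (SE; 95% interval 0.35 to 0.76; limma, adjusted p = 0.0195). It passed without control replicate 2 or 3 and missed without any of the other arrays, with adjusted p up to 0.0994.

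CXCL9, also known as MIG and induced chiefly by interferon-gamma, read 4.84, 4.87 and 4.77 in the knockdown, against 4.78, 4.79 and 4.61 in control. The groups overlapped and the difference was 0.11 (95% interval -0.06 to 0.27; limma, adjusted p = 0.457). CXCL13 read 4.62, 4.66 and 4.37 in the knockdown, against 4.39, 4.61 and 4.98 in control, with a difference of -0.11 (-0.45 to 0.22; adjusted p = 0.716). Neither gene separated the groups, and CXCL13 turned to 0.05 without control replicate 3.

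**Figure D2:**
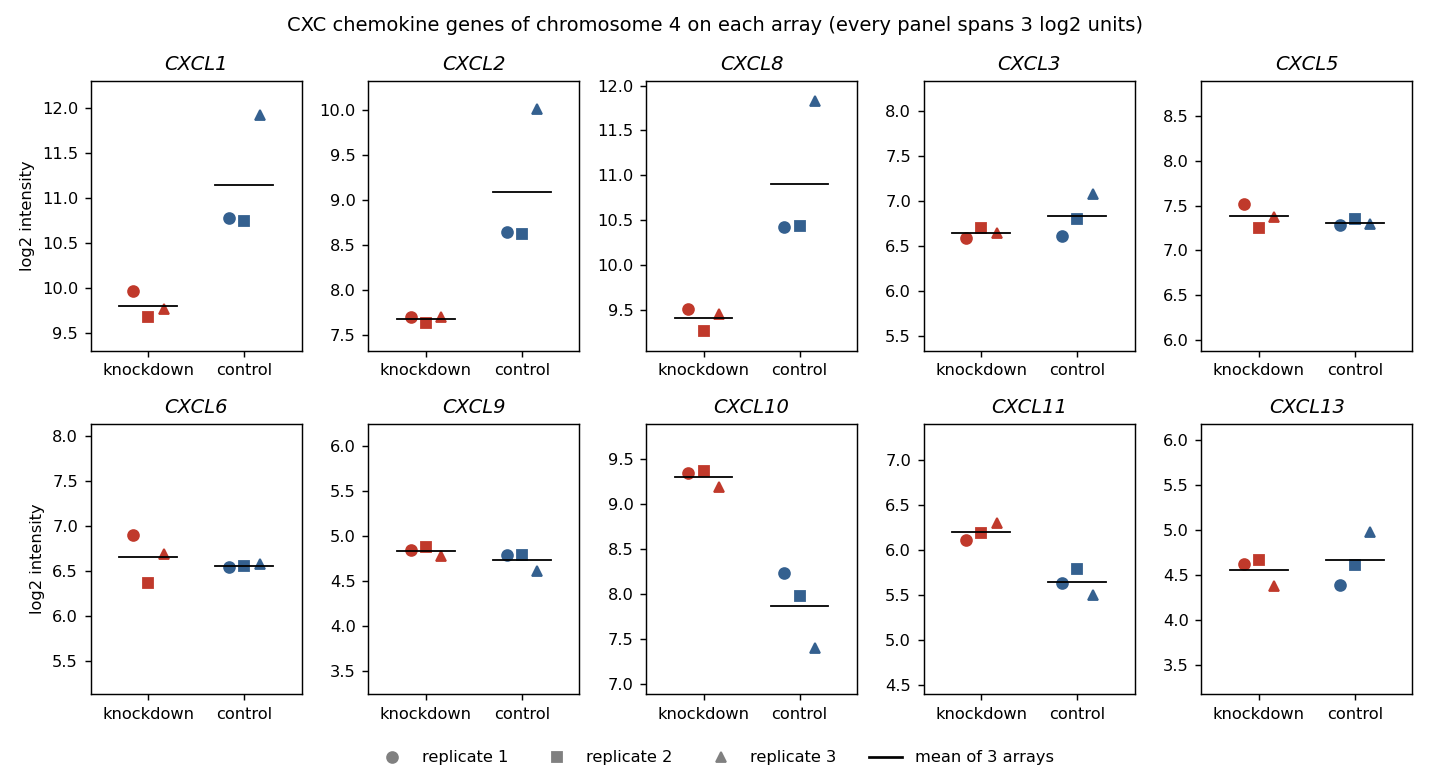
Log2 intensity of each chemokine gene on each of the 6 arrays, knockdown left and control right, with a line at the mean of 3 arrays; every panel spans 3 log2 units, so heights can be compared as differences. CXCL1, CXCL2 and CXCL8 lie lower in every knockdown array, with control replicate 3 (triangle) highest; CXCL10 and CXCL11 lie higher in every knockdown array.

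In all, 5 of the 10 members had groups that did not overlap: 3 lower, against 12.7% of all genes, and 2 higher, against 14.3%. Differences of 2-fold or more, with no test, were found for CXCL1, CXCL2 and CXCL8 among the 22 genes lower by that much (0.119% of all genes), and for CXCL10 among the 5 higher by that much (0.0271%). Without control replicate 3, CXCL1 (-0.96) and CXCL2 (-0.95) were short of 2-fold. The median difference was -0.77 over the 6 neutrophil chemokines and 0.56 over the 3 interferon-induced ones, beside 0.03 over all genes. Without control replicate 3 these medians were -0.51 for the neutrophil chemokines and 0.49 for the interferon-induced ones. No neutrophil chemokine lay near the median of -0.77. CXCL1, CXCL2 and CXCL8 lay between -1.49 and -1.34, and CXCL3, CXCL5 and CXCL6 between -0.19 and 0.09. The median therefore does not describe a measured fall of the whole group. CXCL3, CXCL5 and CXCL6 are dim genes whose values cannot be separated from background here, so a fall in them may not be measurable. Whether they fell as well was not settled by these values.

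**Figure D3:**
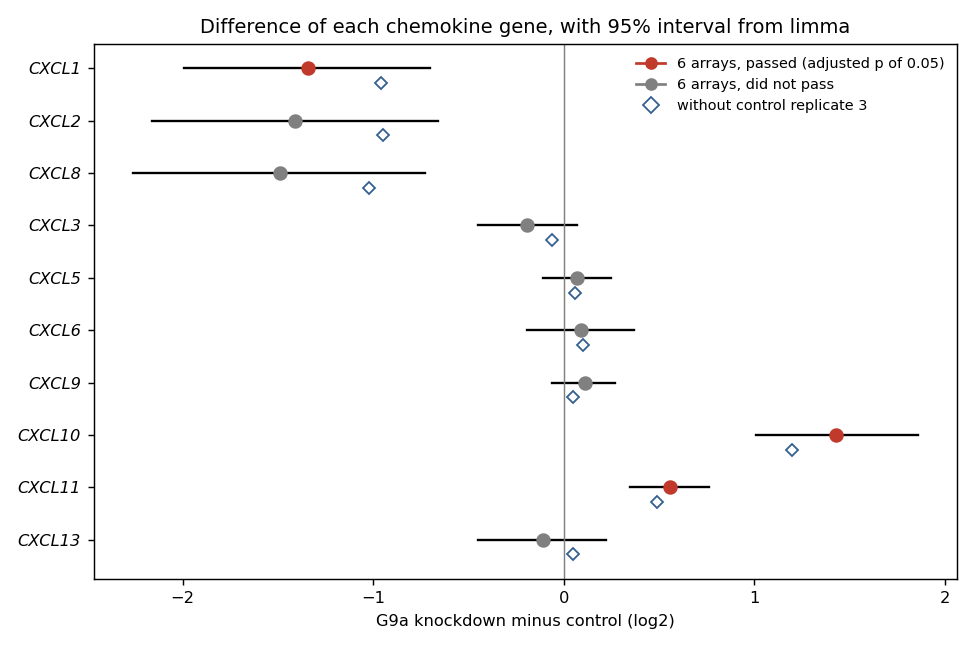
Knockdown minus control difference in log2 units for each gene, with its 95% interval from limma over 6 arrays (red, passed; grey, did not pass) and the difference without control replicate 3 (open diamonds). The intervals of CXCL1, CXCL2 and CXCL8 lie below 0 and those of CXCL10 and CXCL11 above 0; without control replicate 3 the first 3 move to between -1.02 and -0.95.

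The neutrophil chemokines were then set against the interferon-induced ones on each array. The mean log2 value over the 6 neutrophil chemokines less that over CXCL9, CXCL10 and CXCL11 was 1.27, 1.01 and 1.18 in the knockdown, against 2.17, 2.24 and 3.29 in control. The knockdown arrays were all lower than the control arrays, by 1.41 on average, and by 1.05 without control replicate 3. CXCL1, CXCL2, CXCL8, CXCL10 and CXCL11 made up most of it, and the 4 other genes contributed differences of 0.19 or less in size. No test is given for it because the members were chosen with earlier results known.

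Among 12277 other genes above the lowest 33.3% of mean level, those whose values over the 6 arrays were most like CXCL1 by Pearson r were ADAP2 (0.998), WIPI1, an autophagy protein gene (0.998), CXCL8 (0.998), RRAS2, a RAS-like GTPase gene (0.998), and DENND3 (0.997). Most like CXCL10 were TMEM164 (0.998), PLAA (0.997), the histone chaperone gene ASF1B (0.997), MAL2 (0.996) and ZNF254 (0.996). These are descriptions over arrays of 2 groups that share the same high or low control replicate 3. The size of change differed: RRAS2 read 10.95, 10.88 and 10.91 in the knockdown and 11.04, 11.06 and 11.23 in control, a difference of -0.19, and ASF1B read 12.25, 12.25 and 12.23 in the knockdown and 11.97, 11.96 and 11.79 in control, a difference of 0.34.

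Of the other CXC chemokines, the platelet genes PPBP, PF4 and PF4V1 lie among the members on chromosome 4, and with CXCL12, CXCL14, CXCL16 and CXCL17 they made a list of 7. CXCL16, a membrane-bound ligand of CXCR6 encoded on another chromosome, read 8.18, 8.38 and 8.18 in the knockdown, against 8.88, 8.86 and 8.82 in control. It fell by 0.60 (limma, adjusted p = 0.00897) and was the 1 member of that list that passed, also in 4 of the 6 fits with 1 array left out. Control replicate 3 did not stand apart for it. The other 6 ranged from -0.04 to 0.10.

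None of the 8 CXC receptor genes passed in limma, with 2 higher and 1 lower at an unadjusted p under 0.05. CXCR2, the receptor of the neutrophil chemokines, read 5.61, 5.54 and 5.61 in the knockdown and 5.31, 5.46 and 5.41 in control, a difference of 0.19 (adjusted p = 0.156). The atypical receptor gene ACKR1, whose product binds chemokines without G protein signalling, differed by 0.19 too (adjusted p = 0.169). Of the 8 genes, 6 were in the lowest 33.3% of mean level.

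NF-kappaB genes encode products that carry, or restrain, inflammatory signals to the neutrophil chemokine genes. Among 16 subunits and regulators, 7 fell and none rose, against 1.78% of all genes that fell. At an unadjusted p under 0.05 in limma, 8 were lower and 1 higher. TNFAIP3, the feedback inhibitor A20, fell by 0.58, its partner TNIP1 by 0.55, NFKBIA, the inhibitor I-kappaB-alpha, by 0.40, CYLD, a deubiquitinase that restrains the pathway, by 0.39, NFKBIZ, a nuclear cofactor, by 0.37, NFKB2 by 0.35 and the kinase gene CHUK by 0.33 (limma, adjusted p from 0.0120 to 0.0466). The list's median was -0.19, beside 0.03 over all genes. TNIP1 read 9.96, 9.98 and 9.89 in the knockdown, against 10.46, 10.40 and 10.63 in control. The list held 14 members with negative values, and its mean level was 9.95, 9.97 and 9.92 in the knockdown, against 10.15, 10.13 and 10.25 in control. The list had 4 members that fell without control replicate 3, against 1.70% of all genes, and 0 or 1 with any other array left out. TNFAIP3 differed by -0.43 in the fit without control replicate 3 (adjusted p = 0.0265).

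Of 16 genes for inducers of NF-kappaB and their receptors, IL1A fell and TLR4 rose. IL1A, an interleukin-1 cytokine that induces the neutrophil chemokines, read 8.01, 8.20 and 7.93 in the knockdown, against 9.44, 9.39 and 11.06 in control. Control replicate 3 was the highest array, as for CXCL1, CXCL2 and CXCL8, and the difference was -1.92 ± 0.39 (SE; limma, adjusted p = 0.0415); without that array it was -1.37 (adjusted p = 0.00328). IL1A passed in 2 of the 6 fits with 1 array left out, with adjusted p up to 0.155 in limma. IL1B, named after its values were seen, read 11.41, 11.34 and 11.33 in the knockdown, against 11.80, 11.87 and 12.74 in control, and did not pass (-0.78, adjusted p = 0.100). TLR4, the endotoxin receptor gene, read 8.54, 8.92 and 8.76 in the knockdown, against 7.98, 8.07 and 7.58 in control, and rose by 0.86 (adjusted p = 0.0210), or 0.71 without control replicate 3. It passed in 3 of the 6 fits with 1 array left out (limma, adjusted p up to 0.104). Whether these genes take part in the chemokine differences was not tested.

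Chemokine mRNAs carry AU-rich elements and are degraded with the help of RNA-binding proteins. Of 8 genes listed for mRNA decay and its regulation, ZC3H12A, which encodes the RNase regnase-1, fell by 0.55 (limma, adjusted p = 0.0446). The decay factor gene ZFP36L2 rose by 0.43 (limma, adjusted p = 0.0283). ZC3H12A read 9.53, 9.62 and 9.59 in the knockdown and 9.93, 10.05 and 10.41 in control. The other 6 did not pass. With 1 array left out, ZC3H12A passed in 2 of 6 fits and ZFP36L2 in 1; without control replicate 3 the ZC3H12A difference was -0.41.

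The interferon side was measured with 16 genes for interferons, their receptors and signalling, none of which passed in limma and none of which had an unadjusted p under 0.05. IFNL1 (0.21) and IFNB1 (0.16), which encode interferons, had the largest differences. Of 38 interferon-stimulated genes measured singly, 2 rose, 1 fell and 35 did not pass, with a median of 0.05. The antiviral GTPase gene MX2 rose by 0.38 (adjusted p = 0.0483) and the guanylate-binding protein gene GBP2 by 0.36 (adjusted p = 0.0285), while USP18, a feedback inhibitor of interferon signalling, fell by 0.46 (adjusted p = 0.0257). GBP2 read 9.54, 9.65 and 9.61 in the knockdown and 9.20, 9.32 and 9.21 in control. The differences of CXCL10 (1.43) and CXCL11 (0.56) were each above that of any of these 38 genes, the highest of which was 0.38 for MX2. The median of the 38 turned to -0.04 without control replicate 3, where none rose, against 1.21% of all genes, and 1, USP18, fell (6 higher and 9 lower at an unadjusted p under 0.05). MX2 and GBP2 passed in 0 of the 6 fits with 1 array left out, with adjusted p up to 0.168 and 0.123 in limma. USP18 passed in 1 of those 6 fits, that without control replicate 3 (limma, adjusted p up to 0.122).

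**Figure D4:**
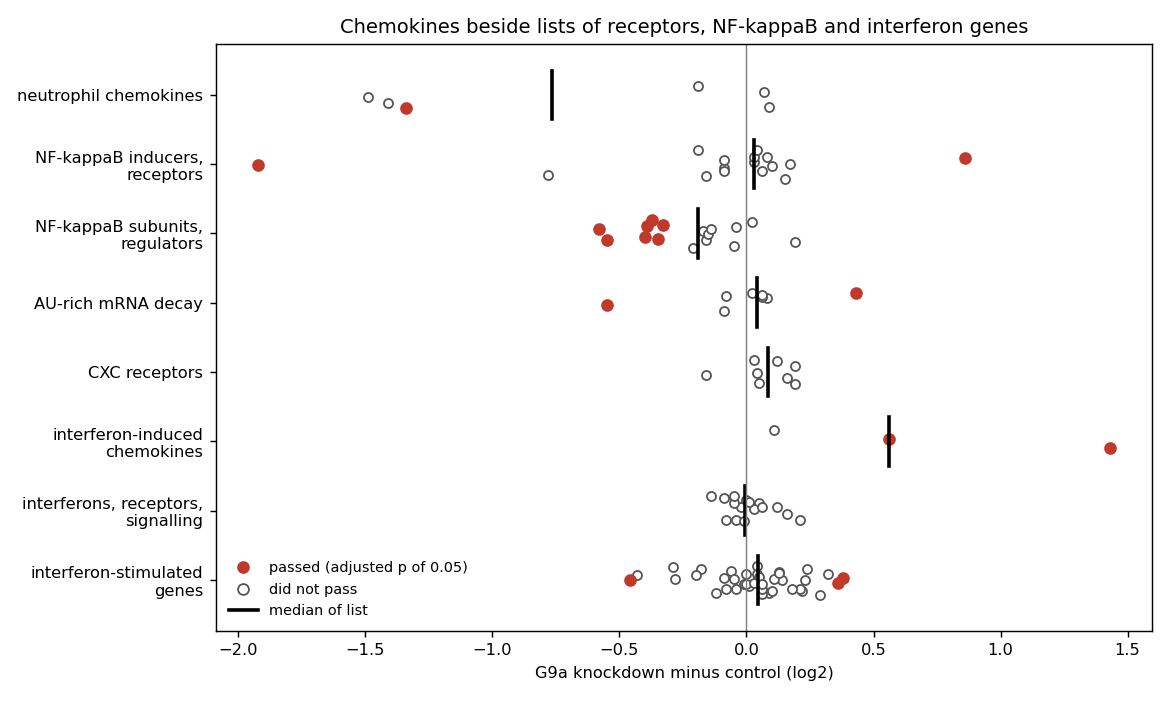
Knockdown minus control difference in log2 units for each gene of 8 lists; filled points passed in limma, open points did not, and bars mark list medians. The neutrophil chemokine and NF-kappaB regulator medians lie at -0.77 and -0.19, the interferon-induced chemokine median at 0.56 and the interferon-stimulated gene median at 0.05; without control replicate 3 the neutrophil chemokine median was -0.51.

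On chromosome 4 the members do not lie in 1 block: in RefSeq order, CXCL8 to CXCL2 come first, CXCL9 to CXCL11 follow after other genes, and CXCL13 is last. A total of 27 other tested genes lie between them, of which 4 fell, against 1.78% of all genes, and 1 rose, against 1.28%; the median of the 27 was -0.08. Of the 700 other tested genes of chromosome 4, which include these 27, 37 fell, against 1.78% of all genes, and 7 rose, against 1.28%. Falls were thus more frequent across the chromosome and not only between the members. ODAPH (-1.09), PARM1 (-0.60), SHROOM3 (-0.49) and the stress granule gene G3BP2 (-0.30) fell. ODAPH, which is known for its part in enamel formation, had an adjusted p of 0.00872. FRAS1 (-0.70) and BMP2K (-0.39), just beyond CXCL13, fell as well. With 1 array left out, SHROOM3 and G3BP2 passed in 0 of 6 fits, ODAPH in 4, PARM1 in 5 and FRAS1 in 6. Across chromosome 4, 81.2% of 431 other genes above the lowest 33.3% of mean level had negative values, with a median of -0.15, against 44.9% and 0.02 over all genes above the lowest 33.3%. The differences of CXCL1, CXCL2 and CXCL8 lay below, and those of CXCL10 and CXCL11 above, the chromosome's median; the part of this regional shift in the chemokine values was not tested.

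The 1 neighbour that rose was ART3, an ADP-ribosyltransferase family gene that overlaps CXCL10 and CXCL11 in the RefSeq annotation. It read 6.08, 5.94 and 6.02 in the knockdown, against 5.41, 5.34 and 5.69 in control, and rose by 0.53 (limma, adjusted p = 0.0301), and passed in 1 of the 6 fits with 1 array left out, that without control replicate 3. Control replicate 3 was the highest control array for ART3 but the lowest for CXCL10 (7.40) and CXCL11 (5.50). Whether ART3 values share signal with those genes was not tested. Between CXCL8 and CXCL2, the platelet chemokine genes PF4V1 (0.10), PF4 (-0.01) and PPBP (0.04) and the pseudogene PPBPP2 (0.09) did not pass, and all 4 are in the lowest 33.3% of genes by mean level. In tested order PF4V1 lies between CXCL6 and CXCL1, PF4 follows CXCL1, PPBP precedes CXCL5, and PPBPP2 lies between CXCL3 and CXCL2.

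**Figure D5:**
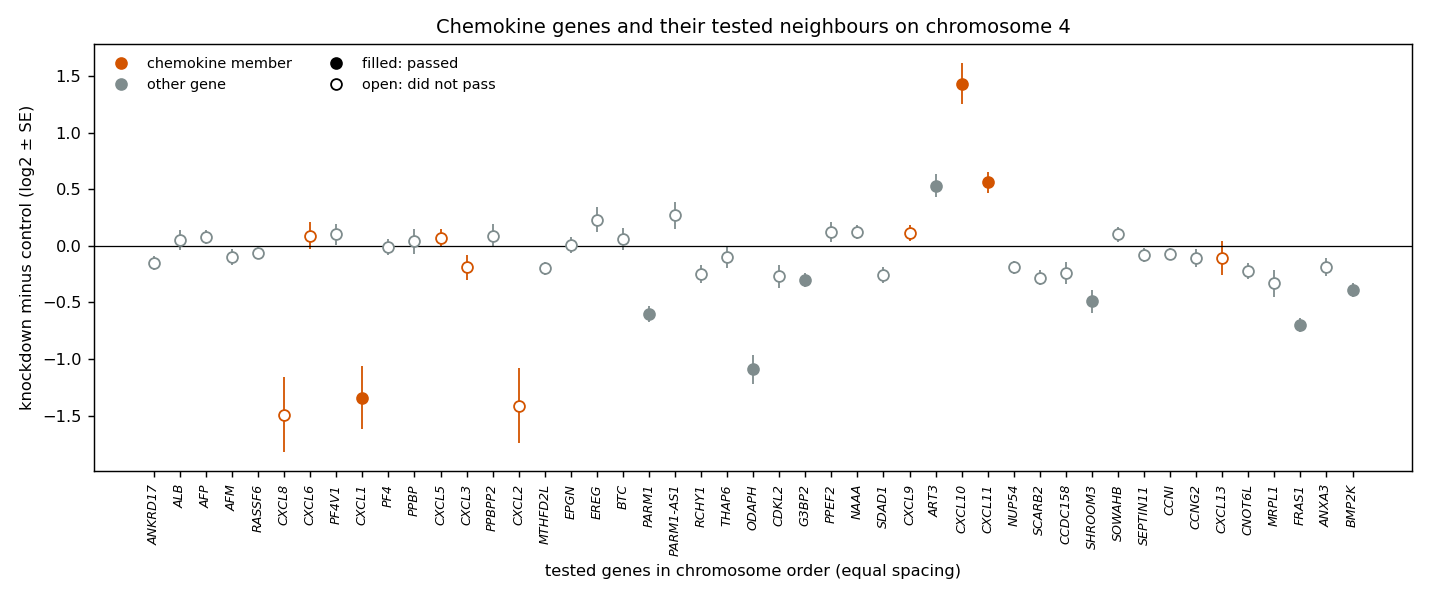
Knockdown minus control difference in log2 units (± SE) of the 10 chemokine genes (orange) and the 37 tested genes between them or just beyond them (grey), in chromosome order with equal spacing; filled points passed. CXCL8, CXCL1 and CXCL2 lie between -1.49 and -1.34, and CXCL10 and CXCL11 lie above neighbours that are mostly negative.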

How the data were processed

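Biotin-labelled total RNA from 6 samples was hybridised to single-colour arrays, per the labels. The deposited log2 values, 1 per probe set and array, came summarised and scaled from the authors, with software that is not given in the sources used here. Their log base was inferred from their range, 2.13 to 14.76, and the scaling from close quartiles; array medians lay between 7.79 and 7.86. Without detection calls, dim probe sets could not be told from background, and 3 arrays a group limit precision. Of 33297 probe sets, 19460 were annotated to 1 gene, 1754 to several and 12083 were unlisted. Symbols were updated through Entrez numbers against RefSeq (GRCh38.p14; 19429 of the 19460 matched). The probe set with the highest mean stood for its gene, leaving 18417 genes.

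The test was two-sided limma (version 3.58.1, R 4.3.3; linear model with empirical Bayes variances, no covariate, knockdown minus control), adjusted by Benjamini-Hochberg over all 18417 and called at an adjusted p of 0.05; the fit was checked on simulated arrays. Named were the members, EHMT2, list genes that passed (or the 2 largest differences where none did), neighbours in RefSeq order with 5 tested genes beyond each end, and the 5 genes most like CXCL1 and CXCL10. The members and lists were chosen with earlier results of these data known. Motifs were searched on both strands of RefSeq promoters, all 10 members matching by symbol; identities came from global alignments (Biopython 1.88). Alternatives covered normalization, a filter on low values, the variance model, array weights, a replicate block, probe set choice and left-out arrays.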

Additional observations from a re-analysis of the deposited data

How the results depend on the processing

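The directions of CXCL1, CXCL2, CXCL8, CXCL10 and CXCL11 held under all 15 alternatives that tested them, but their calls did not. With 6 arrays, 1 member fell and 2 rose (limma). The number that fell was 0 after quantile normalization, with every probe set tested and with the replicate block, and 3 after median centring, without the lowest 33.3% of genes, with a variance trend, with array weights, and without control replicate 3 and G9a knockdown replicate 1 together. At an unadjusted p under 0.05, 3 members were lower in each of these fits. The number that rose was 1 without the lowest 33.3% of genes, where CXCL11 is not tested, 1 with the replicate block and 0 with every probe set tested, where 2 were higher at an unadjusted p under 0.05. With 1 array left out, 0 to 3 members fell and 0 to 2 rose. The fits without control replicate 1, control replicate 2 or any knockdown array gave 0 that fell, with 3 or 4 lower at an unadjusted p under 0.05, and the fit without control replicate 3 gave 3. The cause was not tested.

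CXCL1 missed the threshold after quantile normalization (adjusted p = 0.0533), with the replicate block (0.0590) and with every probe set tested (0.141), and CXCL11 with the replicate block (0.0554). The labels do not say whether a replicate number marks a shared culture or day. Same-numbered arrays had correlations of -0.246, 0.122 and 0.088 between their deviations from the group means. These values cannot settle whether the samples are paired, because arrays with different numbers were not compared. The neutrophil less interferon-induced difference, -1.41, ranged from -1.61 without control replicate 1 to -1.05 without control replicate 3. With 1 array left out, CXCL5 ranged from -0.00443 to 0.13, CXCL6 from -0.03 to 0.24 and CXCL13 from -0.25 to 0.05. CXCL5 and CXCL6 were lowest without G9a knockdown replicate 1 and were -0.01 and -0.02 without it and control replicate 3, and CXCL13 was highest without control replicate 3 and 0.01 without both. EHMT2 stayed at -0.66 to -0.49 with 1 array left out, was -0.69 without control replicate 3 and G9a knockdown replicate 1, and was -0.55 with every probe set tested (adjusted p = 0.0957); it passed in 1 of the 6 fits with an array left out. Of the 16 NF-kappaB subunits and regulators, of which 7 fell, 1 fell with the replicate block and 0 with every probe set tested (8 lower at an unadjusted p under 0.05 in each), and IL1A passed in neither fit.

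Over all genes 235 rose and 327 fell. These counts were 398 and 574 without the lowest 33.3%, 434 and 649 with a variance trend, 1718 and 1610 with array weights, 101 and 116 with the replicate block, 27 and 33 with every probe set tested, 154 and 189 without control replicate 3 and G9a knockdown replicate 1, and 21 to 222 and 23 to 313 with 1 array left out.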
